A study of Mus musculus with 8 samples.

Results

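Neural immunoglobulin adhesion molecules are cell-surface proteins that neurons and glia use to hold on to each other, to bundle axons and to steer growth cones. The genes described here are the neural cell adhesion molecules Ncam1 and Ncam2, the L1 family members L1cam, Chl1 and Nrcam, the contactins Cntn1, Cntn2, Cntn3 and Cntn4, and Alcam, 10 genes in all. A probe belonged to the set if the array platform's annotation gave 1 of these symbols as its gene. That found 12 of the 21582 probes on the array, for 9 of the 10 genes and of 15094 genes named on it. Ncam1 had 3 probes, Cntn1 had 2 and 7 other genes had 1 each, and no probe carried the symbol Cntn2.

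The RNA came from neurospheres, which are balls of dividing neural precursors kept in suspension, made from mouse cortex at gestational day 12.5 in serum-free medium with basic fibroblast growth factor and epidermal growth factor at 20 ng/ml and leukaemia inhibitory factor at 0.15 ng/ml. Ethanol-exposed cultures received 320 mg/dl ethanol for 5 days in this medium and were then differentiated for 3 days without ethanol by taking away epidermal growth factor and leukaemia inhibitory factor. Control cultures were differentiated by the same withdrawal with no ethanol before it. RNA of both conditions was hybridised together on each of 8 two-colour arrays, with ethanol-exposed RNA in Cy3 on 4 arrays (replicates 1 to 4) and in Cy5 on 4 arrays (replicates 5 to 8). The labels do not tell whether the arrays represent separate cultures, so p-values measure the spread between arrays, which may be technical. The codes of 3 arrays of each orientation share a number (a3 and b3, a5 and b5, a1r and b1r), and whether such arrays carry the same RNA was not stated. The cultures are mixtures of cell types, so that fewer cells of a type and less RNA per cell cannot be told apart.

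In the background of these genes, NCAM proteins bind to themselves on neighbouring cells and carry polysialic acid in the developing brain, which loosens adhesion. L1 family proteins cross the membrane and anchor to ankyrin inside the cell, and adhesion through L1 is a known target of ethanol at the protein level. Contactins lack a cytoplasmic part, are held in the membrane by a lipid anchor, and work with partners such as NrCAM, Caspr proteins and the receptor phosphatase Ptprz1. Alcam, an immunoglobulin protein of neurons and many other cells, binds to itself and to CD6 on lymphocytes.

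Every value below is a log2 ratio of the 2 RNAs on an array, set relative to that array's median, so that a step of 1 is a doubling. The sources do not state which condition or which dye is the numerator, and no value gives the direction in which ethanol moved a transcript. Each probe was therefore described by 2 numbers. The shared part is the mean of the 2 orientation means, and it contains the ethanol effect if condition was divided by condition. The turning part is the difference between the orientations divided by 2, positive where the ratio was higher with ethanol in Cy5, and it contains the ethanol effect if dye was divided by dye. In either case the other number contains the dye effect.

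Between 16274 and 18802 probes per array had a ratio that could be computed. A test needed a ratio on 3 or more arrays in both orientations, which 15345 probes had (71.1% of the probes). Of the adhesion molecule probes 9 were tested, for 6 genes (75% of the 12), and 7 had a ratio on all 8 arrays. The other 3 probes, for Ncam2, L1cam and Alcam, had too few ratios. Probes of cell type markers were tested for 6 of 9 neuronal, 10 of 11 progenitor, 6 of 7 astrocyte and 8 of 11 oligodendrocyte lineage probes, and for 3 of 5 microglial, 4 of 5 endothelial and mural and 1 of 4 meningeal probes, and none of these passed in either part. Ratios carry no level, so that these markers do not show which cells were present.

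Of the adhesion molecules, only the contactin gene Cntn1 had a probe that passed a test. Its probe AK004399 passed in the turning part, while no probe of the set passed in the shared part. In the turning part 1.56% of all tested probes were called by limma at an adjusted p under 0.05, and 1 of the 9 tested adhesion probes was. In the shared part 0% of all tested probes were called (smallest adjusted p = 0.136). At an unadjusted p under 0.05, 1 of the 9 passed in the shared part (Chl1), where 13.9% of all tested probes did, and 1 in the turning part (the same Cntn1 probe), where 13.8% did.

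Because Cntn1 carries the result, the sequence just before its first annotated start site is shown. Cntn1 encodes contactin 1, also called F3, a lipid-anchored protein of axons and of oligodendrocyte precursors that signals to Notch and forms the contacts beside the node of Ranvier with Caspr. The RefSeq table of build GRCm38.p6 gives 3 start sites for the gene. The 237 bases lie at chr15:92050915-92051151 on the plus strand, and capitals mark the match to the CCAAT motif.
Cntn1 upstream: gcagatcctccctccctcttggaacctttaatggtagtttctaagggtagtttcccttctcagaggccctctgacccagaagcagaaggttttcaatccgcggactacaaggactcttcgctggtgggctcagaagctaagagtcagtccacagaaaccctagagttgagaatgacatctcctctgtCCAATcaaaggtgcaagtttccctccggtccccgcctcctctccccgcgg
Of these bases 53.6% are G or C, where the median of all 32851 windows of that length in the table is 51.9%. The CCAAT motif was searched on both strands and found 1 time; 32.8% of all windows hold it. The GC box GGGCGG and the E-box CANNTG, the site of proneural helix-loop-helix factors, had no match on either strand, where 30.9% and 64.4% of all windows have at least 1. A match is a string of letters and no evidence of binding, and the ratios do not bear on which start site was used.

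On probe AK004399, Cntn1 read -4.56, -3.23, -6.57 and -6.01 on replicates 1 to 4, the arrays with ethanol in Cy3. It read 3.42, 9.07, 2.23 and 3.07 on replicates 5 to 8, the arrays with ethanol in Cy5. The orientations did not overlap: every array of the first set lay below its median by more than 3 and every array of the second lay above it by more than 2. Among all 10486 probes with 8 ratios, 10% had orientations that did not overlap, and 1 of the 7 adhesion probes with 8 ratios did so. The orientation means were -5.09 ± 1.5 (SD, n = 4) and 4.45 ± 3.12 (SD, n = 4). The turning part was 4.77 ± 0.72 (SE of the fit), or 27.3-fold (95% interval 3.18 to 6.36 on the log2 scale; limma adjusted p = 0.00715). Only 0.209% of all tested probes had a turning part as high, and 31 of the 118 probes called on the positive side exceeded it. The shared part was -0.32 ± 0.72 (limma adjusted p = 0.866).

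Among the fits that left out 1 array, the turning part moved most without replicate 6, the array that read 9.07. The call ended without the arrays whose codes end in r. Without replicate 6 the turning part was 4.00 ± 0.45, or 16.0-fold, and still passed (limma adjusted p = 0.00253). Without these 3 r arrays (replicates 3, 4 and 8), it was 4.40 ± 1.01 and did not pass (limma adjusted p = 0.245). In the turning part the neuronal marker probes had a median of 0.48 and the oligodendrocyte lineage probes 0.08, beside 0.11 for all tested probes. The median was 0.42 for microglia, -0.07 for progenitors, 0.07 for astrocytes, -0.30 for endothelial and mural cells, and the 1 meningeal probe read -0.09. Of the 10 progenitor probes 3 were positive. Among these, 1 Pax6 probe read 3.82 ± 0.835 (limma adjusted p = 0.0572) and the other Pax6 probe 0.56. The part of these cell types in the Cntn1 values was not tested.

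The second Cntn1 probe, NM_007727, which the RefSeq table lists for the gene, went the same way on average but not on every array. It read -2.22, -1.84, -6.21 and 0.79 with ethanol in Cy3 and 4.04, -0.45, 2.61 and -2.45 with ethanol in Cy5. The orientations overlapped, with replicate 4 above its array's median in the first set and replicates 6 and 8 below theirs in the second. Its turning part was 1.65 ± 0.83, or 3.15-fold, and did not pass (95% interval -0.20 to 3.51; limma adjusted p = 0.422). That is in the highest 1.94% of all tested probes, and leaving out 1 array moved it between 1.01, without replicate 3, and 2.22, without replicate 8. The 2 probes had the same sign on 5 of 8 arrays. They lay within 0.36 of each other on the closest array, replicate 3, and differed by 9.52 on replicate 6. The array with the highest value of the called probe, replicate 6, read -0.45 on the other probe of the same gene. The difference between the probes was not tested. Its shared part was -0.72 ± 0.83 (limma adjusted p = 0.727).

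**Figure D1:**
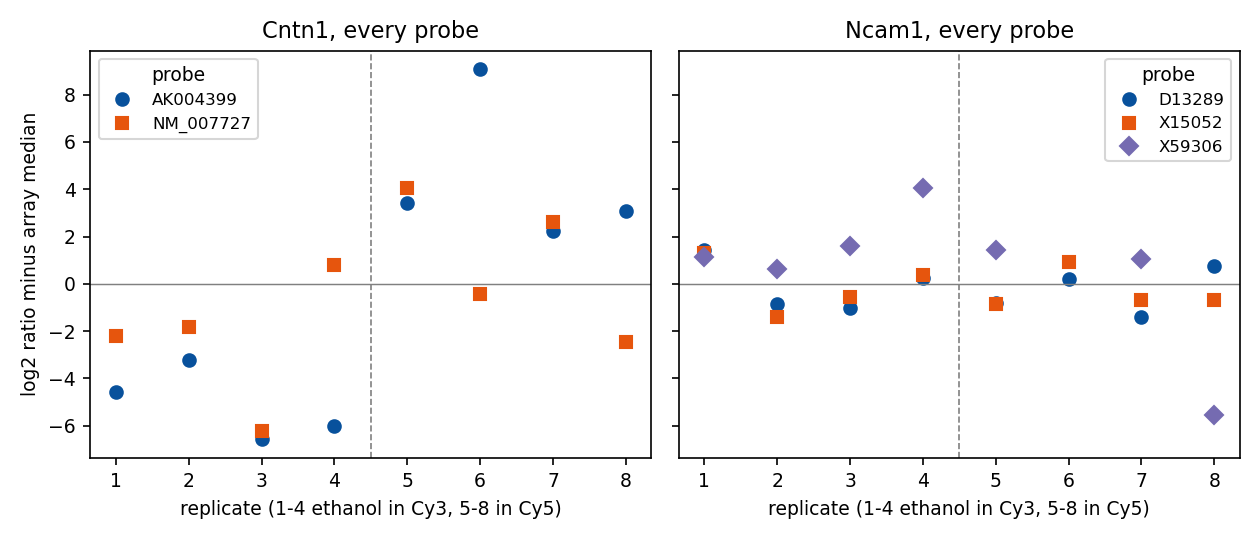
Log2 ratio minus the array's median (vertical axis) on each of the 8 arrays (horizontal axis) for the 2 probes of Cntn1 (left) and the 3 probes of Ncam1 (right); the dashed line separates the arrays with ethanol in Cy3 from those with ethanol in Cy5. Cntn1 probe AK004399 lies below 0 on replicates 1 to 4 and above 0 on replicates 5 to 8, probe NM_007727 crosses 0 in both sets, and Ncam1 probe X59306 falls to -5.55 on replicate 8 where the other 2 probes read 0.76 and -0.67.

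Cntn3 and Cntn4, contactins of restricted sets of neurons in the forebrain and the sensory systems, showed no such turn. Cntn3 read 1.09, -1.23, -0.50 and -1.36 with ethanol in Cy3 and 4.21, -2.91, -3.15 and 0.03 with ethanol in Cy5. The second set held both the highest and the lowest value, and its SD was 3.43 against 1.13 in the first set (n = 4 each). The turning part of Cntn3 was 0.02 ± 0.74 (95% interval -1.62 to 1.67; limma adjusted p = 0.994). Its shared part was -0.48 ± 0.74 (limma adjusted p = 0.800).

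Cntn4 read 0.02, -2.07, -1.63 and 0.99 with ethanol in Cy3 and -1.11, 1.10, -0.44 and -0.91 with ethanol in Cy5. The sets overlapped throughout. The turning part was 0.17 ± 0.42 and the shared part -0.51 ± 0.42 (limma adjusted p = 0.904 and 0.613). The probe's identifier, NM_007518, is not among the transcripts that the RefSeq table gives for Cntn4, and the gene name rests on the platform's annotation. The other 5 RefSeq identifiers among the 12 probes are listed for their genes. The remaining probes, the called Cntn1 probe AK004399 among them, carry no RefSeq identifier, and their gene names also rest on the platform's annotation.

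Chl1, the close homologue of L1 that guides the migration of cortical neurons, leaned to the negative side in both orientations. It read -3.48, -2.15, -0.78 and -2.09 with ethanol in Cy3, and -1.46, -1.51 and 1.31 on replicates 5, 7 and 8 with ethanol in Cy5, with no ratio on replicate 6. The values were below the median on 6 of 7 arrays, with replicate 8 the exception. The shared part was -1.34 ± 0.48 (95% interval -2.42 to -0.26), which did not pass after adjustment (limma unadjusted p = 0.0202, adjusted p = 0.274). Of all tested probes 4.98% had a shared part as low. The turning part was 0.79 ± 0.48 (limma adjusted p = 0.522).

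Nrcam, which joins contactins and ankyrin at nodes and growth cones, had the lowest shared part of the set and also the largest SE. It read -7.14, 1.41, -4.68 and -0.83 with ethanol in Cy3 and -1.41, -3.02, -2.83 and 2.82 with ethanol in Cy5. Replicates 2 and 8 were above the median and the other 6 below it. The shared part was -1.96 ± 0.94 and did not pass (95% interval -4.05 to 0.13; limma adjusted p = 0.385), although only 1.21% of all tested probes had one as low. Leaving out 1 array moved it between -1.24, without replicate 1, and -2.66, without replicate 2. The turning part was 0.85 ± 0.94 (limma adjusted p = 0.750), and it moved between 0.13 and 1.55 with the same arrays left out.

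L1cam, the founding member of its family and a protein of growing axons, could not be tested. With ethanol in Cy3 it had a ratio on replicate 2 alone, at -0.11. Replicates 1 and 4 held an exact 0 and replicate 3 the array's ceiling value, neither of which is a ratio. With ethanol in Cy5 it read -2.76, -2.23, 1.88 and -2.41. Replicate 7 stood apart from the other 3 arrays of that set, and a comparison between orientations would rest on 1 array.

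**Figure D2:**
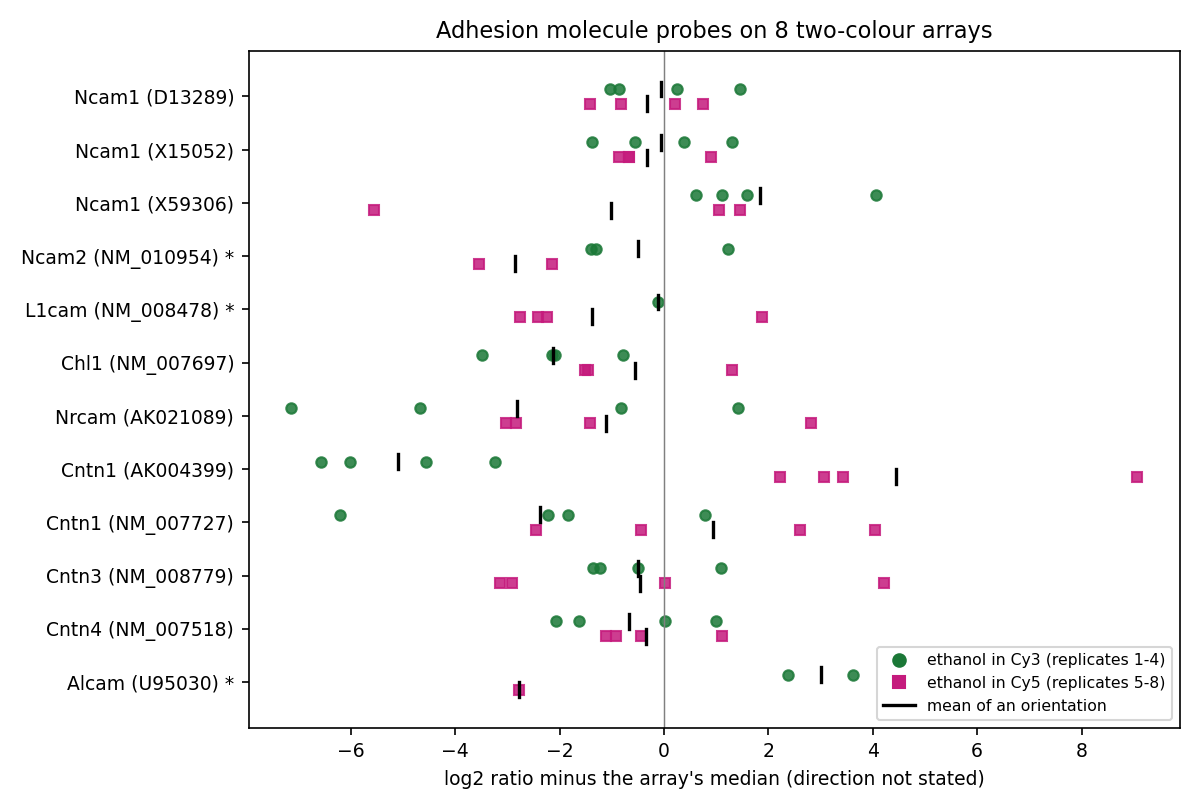
Log2 ratio minus the array's median (horizontal axis) for the 12 adhesion molecule probes (rows); circles are arrays with ethanol in Cy3, squares arrays with ethanol in Cy5, black bars the mean of an orientation, and an asterisk marks the 3 probes with too few ratios to test. Cntn1 probe AK004399 is the 1 tested probe whose circles and squares are separated, from -6.57 to -3.23 and from 2.23 to 9.07.

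Ncam1, which encodes the NCAM protein of neurons and glia, had a pair of probes whose orientation means, though not every array, lay close to the array median. Its remaining probe did not. Probe D13289 read 1.45, -0.87, -1.04 and 0.26 with ethanol in Cy3 and -0.82, 0.21, -1.41 and 0.76 with ethanol in Cy5. Probe X15052 read 1.31, -1.38, -0.56 and 0.39, then -0.86, 0.91, -0.68 and -0.67. These 2 probes had the same sign on 7 of 8 arrays, with a median difference of 0.50 between them, and both crossed 0 within each orientation. The turning parts were -0.13 ± 0.39 and -0.13 ± 0.38, and the shared parts -0.18 ± 0.39 and -0.19 ± 0.38 (limma adjusted p 0.843 to 0.919). The sign of both turning parts became positive, at 0.19, with the values as deposited. Their 95% intervals for the shared part, -1.05 to 0.68 and -1.03 to 0.64, were among the narrowest of the set.

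The remaining Ncam1 probe, X59306, read 1.12, 0.62, 1.58 and 4.05 with ethanol in Cy3, and 1.45, 1.06 and -5.55 on replicates 5, 7 and 8. It was above the median on 6 of 7 arrays and far below it on replicate 8. It shared its sign with D13289 on 2 of 7 arrays and with X15052 on 3 of 7. Its turning part was -1.43 ± 0.83 and its shared part 0.42 ± 0.83 (limma adjusted p = 0.499 and 0.849). Without replicate 8 its shared part was 1.55 and its turning part -0.30, and neither passed.

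Ncam2, a relative of Ncam1 prominent in olfactory axons, had ratios on 5 arrays and was not tested. It read -1.30, -1.40 and 1.23 on replicates 2 to 4 and -2.15 and -3.54 on replicates 6 and 8. The 2 arrays with ethanol in Cy5 lay below the 3 with ethanol in Cy3, and how often probes with so few ratios do so was not counted. Alcam had ratios on 3 arrays, 3.63 and 2.37 on replicates 2 and 4 with ethanol in Cy3 and -2.77 on replicate 6 with ethanol in Cy5, and was not tested either. Its other 5 arrays held an exact 0.

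Seen together, 8 of the 9 tested probes had a negative shared part, with Ncam1 probe X59306 the exception. Their median was -0.48, beside -0.06 for all tested probes, of which 53.9% were negative. The 9 probes include 2 of Cntn1 and 3 of Ncam1 and are not independent. In the turning part 6 of 9 were positive, with a median of 0.17 beside 0.11 for all tested probes. The SEs of the adhesion probes ran from 0.38 to 0.94 with a median of 0.72, while the median SE of all tested probes was 0.44.

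**Figure D3:**
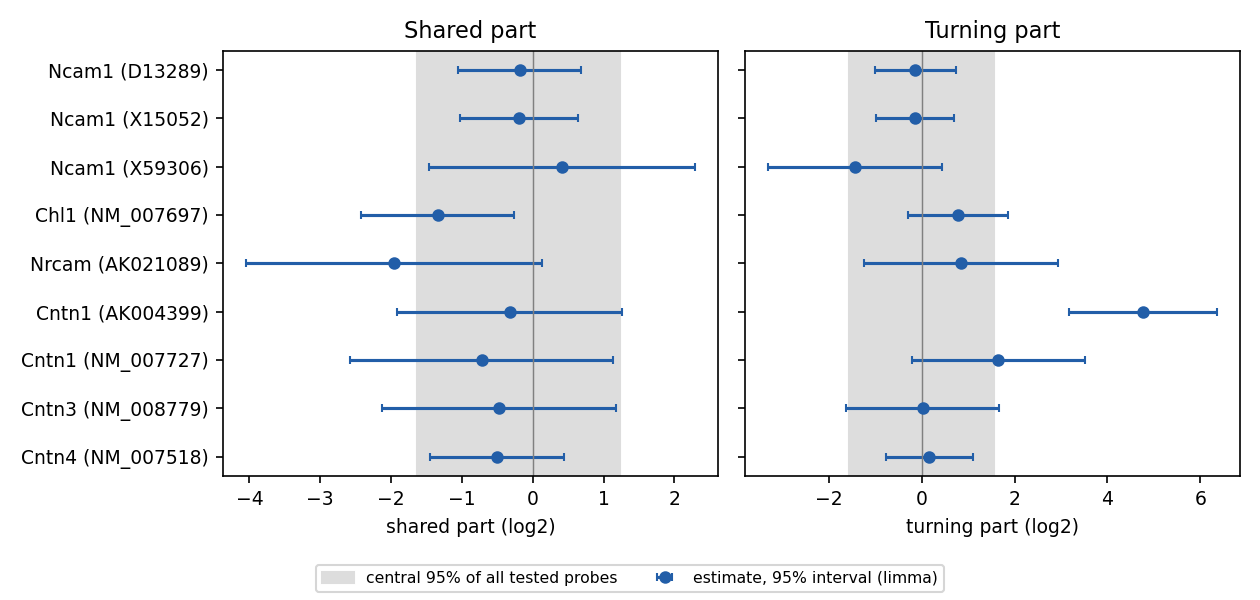
Shared part (left) and turning part (right), in log2 units on the horizontal axes, of the 9 tested adhesion probes (rows); points are limma estimates, bars their 95% intervals, and the grey band holds the central 95% of all 15345 tested probes. The turning interval of Cntn1 probe AK004399, 3.18 to 6.36, is the 1 turning interval that does not contain 0, and in the shared part the interval of Chl1, -2.42 to -0.26, is the 1 that does not.

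In the GRCm38.p6 gene table Cntn3, Chl1, Cntn6 and Cntn4 are consecutive protein-coding genes on chromosome 6. Cntn6, a contactin outside the set, read -2.20, 0.22 and -0.41 on replicates 1, 3 and 4 and 1.63, -5.20 and -0.81 on replicates 5, 6 and 8. Its shared part was -1.13 ± 0.82 (limma adjusted p = 0.559), beside -0.48 for Cntn3, -1.34 for Chl1 and -0.51 for Cntn4. All 4 neighbours were negative, where 53.9% of all tested probes were, and none passed.

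The wider pathway was taken as 6 lists of partner genes, 106 genes of which 87 had a probe, and 76 probes of 68 genes were tested. In the shared part none passed, and in the turning part 1 did, the sialyltransferase gene St8sia1, which is 1.32% of the 76 against 1.56% of all tested probes. Contactin relatives and their partners had 7 tested probes, 5 of them negative in the shared part with a median of -0.61. The lowest was Ptprz1, the receptor phosphatase of glia and progenitors whose outer part binds contactin 1. It read -2.19, 0.36, -3.36 and -2.53 with ethanol in Cy3 and -1.48, -0.84, -1.61 and -0.14 with ethanol in Cy5. Ptprz1 was thus below the median on 7 of 8 arrays, with a shared part of -1.47 ± 0.42 that did not pass (limma adjusted p = 0.226). Omg, a myelin glycoprotein that inhibits axon growth, had a shared part of -1.32 ± 0.70, and Ptprg, a phosphatase that binds several contactins, -0.61 ± 0.39. In the turning part the list's median was 0.41, led by the Nogo receptor gene Rtn4r at 0.76 ± 0.32 (limma adjusted p = 0.325). The Caspr genes Cntnap1, Cntnap2 and Cntnap4, which encode partners of contactins at axonal contacts, had ratios on 5, 4 and 4 arrays and were not tested.

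Other neural immunoglobulin surface proteins lay mostly on the negative side of the shared part, 20 of 25 probes (21 genes), with a median of -0.63 and none past the threshold. Over all 6 lists 46 of 76 probes were negative, and 53.9% of all tested probes were. The counts were 5 of 15 for ligands and matrix partners, 9 of 19 for cytoplasmic partners, 2 of 4 for polysialylation and HNK-1 enzymes and 5 of 6 for proteases. Neurotrimin (Ntm), a lipid-anchored protein of the IgLON family, read -1.28 ± 0.31 (limma adjusted p = 0.180). Dscam and Dscaml1, which keep the branches of a neuron apart, read -1.5 ± 0.39 and -1.5 ± 0.49 (limma adjusted p = 0.206 and 0.244). A second probe of each read -0.55 and -0.03, nearer to 0. In the turning part the list's median was -0.03, and the highest values by the naming rule were 1.31 ± 0.50 for the Hedgehog co-receptor Cdon and 0.98 ± 0.40 for the IgLON gene Opcml, neither passing.

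The enzymes that place polysialic acid and the HNK-1 sugar on adhesion molecules had 4 tested probes. St8sia1 read 2.27, 0.80, 2.55 and 2.47 with ethanol in Cy3 and -2.39, -3.00, -0.93 and -2.38 with ethanol in Cy5. The orientations did not overlap, and the order was opposite to that of Cntn1. The turning part was -2.10 ± 0.35, or 4.28-fold (limma adjusted p = 0.0138). When replicate 1, 3, 4, 6 or 8 was left out, the turning part stayed between -2.06 and -1.96 while the limma adjusted p rose to between 0.0504 and 0.0605. Without the 3 r arrays it was -1.82 (limma adjusted p = 0.358). St8sia1 makes the ganglioside GD3 and does not polysialylate NCAM. Of the enzymes that do, St8sia4 read -0.37 ± 0.35 in the turning part and -0.57 ± 0.35 in the shared part, neither passing. St8sia2 had ratios on 5 arrays and was not tested. Elsewhere in the list, St8sia3 and B3gat1 had shared parts of 1.03 ± 0.565 and 0.64 ± 0.55 (limma adjusted p = 0.449 and 0.631).

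Among the extracellular ligands and matrix partners 15 probes of 12 genes were tested, and the median was 0.28 in the shared part and -0.15 in the turning part. Brevican (Bcan), a brain proteoglycan, came nearest to the threshold, with a turning part of -3.08 ± 0.60 on 6 arrays (limma adjusted p = 0.0532). It read 1.98, 3.42 and 4.81 on replicates 2 to 4 and -0.77, -2.70 and -4.80 on replicates 5, 7 and 8. The growth factor gene Gdnf, whose product also signals through NCAM, had a turning part of -1.85 ± 0.54 (limma adjusted p = 0.154). Pleiotrophin (Ptn), a ligand of Ptprz1, had a shared part of -0.62 ± 0.27 (limma adjusted p = 0.352). Aplp1, with ratios on 6 arrays, was positive in both parts. Its shared part was 1.14 ± 0.62 and its turning part 1.96 ± 0.62 (limma adjusted p = 0.454 and 0.211). Acan had a shared part of 0.65 ± 0.40 (limma adjusted p = 0.491), and its second probe, with ratios on 6 arrays, was not tested.

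Cytoplasmic partners had 19 tested probes, with medians of 0.09 in the shared part and 0.15 in the turning part, and none passed. In the shared part Ap2m1 read 0.80 ± 0.33 and Ezr -1.06 ± 0.43 (limma adjusted p = 0.329 and 0.317). The microtubule-binding protein gene Dcx, also on the neuronal marker list, whose product binds neurofascin of the L1 family, had a shared part of -1.88 ± 0.46 (limma adjusted p = 0.180) and was below the median on 7 of 8 arrays. In the turning part the protein kinase gene Prkcb read 2.51 ± 0.75, and the membrane-skeleton adaptors Ank1 and Ank3, which hold L1 family proteins in place, read -1.44 ± 0.47 and 1.25 ± 0.54 (limma adjusted p 0.151 to 0.352). A second Ank3 probe had ratios on 4 arrays and was not tested. It read 2.31 and 0.58 on replicates 2 and 3 and -1.185 and -1.30 on replicates 6 and 8, the opposite order to the first Ank3 probe. The list of shedding proteases had 6 tested probes. Adam10, which cleaves L1 and NCAM from the surface, was negative on all 6 arrays with a ratio, from -5.19 to -0.78, with a shared part of -2.20 ± 0.61 that did not pass (limma adjusted p = 0.231). The list also holds the matrix glycoprotein gene Reln, whose 2 probes read -0.72 and -0.90.

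**Figure D4:**
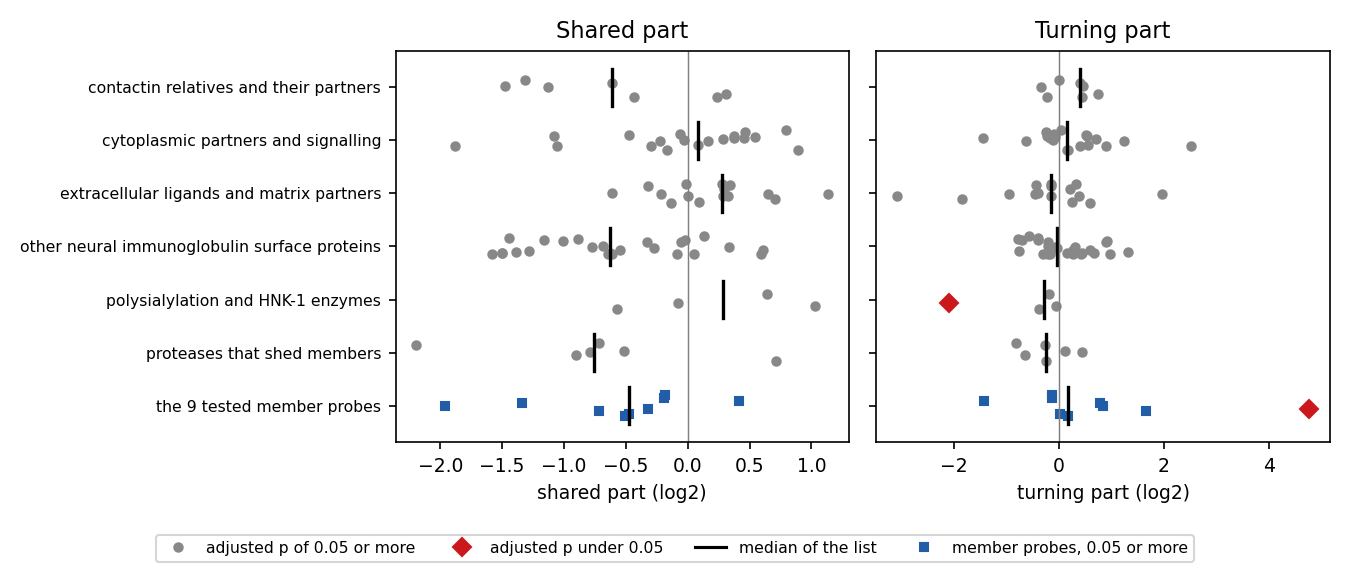
Shared part (left) and turning part (right), in log2 units on the horizontal axes, of the 76 tested partner probes in 6 lists and of the 9 tested adhesion probes (rows); each point is a probe, spread vertically for legibility, black bars are medians, and red diamonds are probes with a limma adjusted p under 0.05. The diamonds are St8sia1 at -2.10 and Cntn1 probe AK004399 at 4.77, both in the turning part.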

How the data were processed

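The deposited table holds 1 value per probe and array, which the authors gave as log2 ratios; the scale was worked out from the values, since no source used here describes the scanning, background correction or normalization. The low values of each array (100% of those checked, tolerance 0.0011) fell on the steps that ratios kept in units of 0.001 give after log2, shifted by a constant of the array. Exact 0 (2565 to 5200 values per array) and each array's highest value (108 to 464) were taken as missing. Array medians ran from -0.435 to 0.516, and each array was centred on its median. Both parts were fitted to all tested probes in R 4.3.3 by lmFit and eBayes of limma 3.58.1, with Benjamini-Hochberg adjustment over 15345 probes and a threshold of 0.05; the script was tested on simulated data. The number of arrays limits the precision, and the ratios keep no intensity.

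Gene names came from the platform annotation and were updated by Entrez number to GRCm38.p6 symbols. Of all probes 16635 had 1 symbol, 113 several and 4834 none, and Entrez numbers matched for 15957. Upstream sequence is from RefSeq, GRCm38.p6, where 9 of the 10 genes have a window, and was trimmed to end before the gene's annotated span. The members and lists were chosen with earlier results of these data known. Named were every member probe, each partner probe past the threshold and, from each list and part, probes among the 3 with the smallest unadjusted p. Second probes of named genes, Cntn6, St8sia2, the Caspr genes and the marker Pax6 were added after their values were seen. The alternatives covered centring, missing values, the spread of the arrays, the empirical Bayes step, the arrays used and, added after seeing the data, a pairing of arrays by their codes.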

Additional observations from a re-analysis of the deposited data

Results flagged for a closer look

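Of 17 sets of 4 ratios (a member probe in 1 orientation), 2 held an array far from the other 3. The rule flags about 1 in 20 sets if values are normally distributed. How often it flags sets of all probes was not counted, so the 2 sets are no sign of an excess. For L1cam, replicate 7 was at 1.88, while replicates 5, 6 and 8 lay between -2.76 and -2.23. For Ncam1 probe X15052, replicate 6 was at 0.91, while replicates 5, 7 and 8 lay between -0.86 and -0.67.

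Cntn1 probe AK004399 differed between the orientations, with a turning part of 4.77 ± 0.72 (limma adjusted p = 0.00715). The gene's other probe read 1.65 ± 0.83 and did not pass.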

How the results depend on the processing

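With 18 alternatives, Cntn1 probe AK004399 stayed positive in the turning part, between 3.85 and 5.14, and passed in 17; without the r arrays it read 4.40 and no adhesion probe and no partner probe was called (0 of each). No probe of the array passed in the shared part under any alternative. Over all probes 239 passed in the turning part, 417 with the values as deposited, 73 without the r arrays and 143 to 188 when 1 array was left out. Partner probes called ranged from 0 to 2 when 1 array was left out, the second being Bcan without replicate 5. Without centring 312 of the 417 calls were positive, against 118 of 239, and over all probes the turning part had a median of 0.42 against 0.11.

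Signs that turned belonged to values that did not pass. Without the r arrays the shared parts of Cntn1 were 0.51 and 0.02, and the turning parts were -0.27 for Cntn3 and 0.19 for Ncam1 probe X59306. As deposited, the turning parts of Ncam1 probes D13289 and X15052 were both 0.19, and with exact 0 kept as 0 both were 0.11. Leaving out 1 array gave shared parts of -1.09 to 0.047 for Cntn1 probe AK004399, -0.42 to 0.026 for X15052 and -0.20 to 1.55 for X59306. It gave turning parts of -0.75 to 0.47 for Cntn3, -0.074 to 0.44 for Cntn4, -0.31 to 0.12 for D13289 and -0.35 to 0.10 for X15052. The cause of these changes was not tested, and the alternative without the r arrays holds 5 arrays. No adhesion probe held a value at the floor of the deposited rounding (0 values), and probes with few ratios, such as L1cam and Alcam, could not be judged.

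A replicate block was tried after seeing the data, with the arrays whose codes share a number taken as 3 pairs. The deviations of such arrays from their orientation means had correlations of 0.016, -0.035 and 0.040 over 10486 probes. Pairs with different numbers, also 1 array from each orientation, gave -0.083 to 0.072. These correlations cannot tell whether a shared number means the same RNA. With the block 85 of all probes passed in the turning part, against 113 for the same 6 arrays not paired. Cntn1 probe AK004399 read 3.85 in both and passed with limma (adjusted p = 0.0432 and 0.00877), no partner probe passed (0 in both; St8sia1 read -1.89), and the shared part of Cntn3 turned to 0.076. With 3 pairs, a lost call does not show a smaller effect.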
